A study of Mus musculus with 6 samples.

Results

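The pericytes of the sorted amygdala cells were compared between mice killed after fear recall (FR) and mice killed after fear conditioning (FC). A cell barcode was taken as a pericyte when it had at least 500 genes, under 6% of its unique molecular identifiers (UMIs) from mitochondrial genes, at least 10 UMIs of Vtn and Rgs5 together, at most 5 of Slc1a2 and Slc1a3 together, under 5 of Acta2 and under 3 of Dcn. It was given to a mouse when its strongest hashtag had at least 10 UMIs and at least 3 times the next. Of 13546 barcodes in the series, 11103 met the cell quality criteria, 2188 passed the pericyte gate and 990 also had a listed mouse. Of these 990 pericytes, 190 came from 4 FR mice and 291 from 4 FC mice, and these 481 cells are the subject of the comparison. The other 509 came from 4 NoFC and 4 NoFR mice and were used to estimate the library effect and the spread between mice.

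The labels give all mice as wild-type males of the strain C57BL/6N, and the methods describe the mice used as young adults. NoFC mice explored the conditioning context without a shock, FC mice received foot shocks there, NoFR mice were conditioned and left in the home cage the next day, and FR mice were conditioned and put back into the context the next day to recall. Tissue was taken 90 min after the behaviour began, in the presence of actinomycin D, triptolide and anisomycin, which block transcription and translation and hold the RNA near its state in the animal. Cells of several mice were pooled into each of 3 libraries, and sorting by the astrocyte surface antigen ACSA-2 left the pericytes as a by-product of an astrocyte preparation. FC mice were shocked in the session before collection, whereas FR mice had been shocked the day before. The time since the shock, the day of collection and recall cannot be told apart in this comparison.

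Pericytes are the mural cells of brain capillaries. They lie within the basement membrane next to the endothelium, are recruited by platelet-derived growth factor through PDGFRB, hold the blood-brain barrier and adjust capillary diameter through potassium channels, calcium and cyclic nucleotides. Being at the vessel wall, they meet circulating hormones, among them glucocorticoids, which act through the receptor NR3C1 and directly induce targets such as Zbtb16, Tsc22d3, Fkbp5 and Per1. They also hold a circadian clock, in which CLOCK and BMAL1 (encoded by Arntl) bind the E-box and drive Per, Cry, Nr1d1, Dbp, Tef and Hlf, and the PAR-bZIP factors DBP, TEF and HLF bind the D-box.

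The assignment of each cell rests on the hashtag oligonucleotide carried by the antibody its mouse was stained with. The 15-base barcodes of the 8 FR and FC mice are shown because they define the replicates, and no base is set in capitals since the whole barcode is read. The same hashtag was reused in different libraries, so that hashtag and library together give the mouse.
FC 1, library 1, HashTag_2: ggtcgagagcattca
FC 2, library 1, HashTag_8: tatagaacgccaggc
FC 3, library 2, HashTag_14: ctttcgccaactctg
FC 4, library 2, HashTag_5: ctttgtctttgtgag
FR 1, library 1, HashTag_4: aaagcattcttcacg
FR 2, library 1, HashTag_10: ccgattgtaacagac
FR 3, library 2, HashTag_1: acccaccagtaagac
FR 4, library 3, HashTag_7: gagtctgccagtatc
Among the 990 pericytes the strongest hashtag had a median of 21 UMIs and the next a median of 3. Library 3 held an FR mouse but no FC mouse.

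The labels give the sorted cells as astrocytes, whereas the gated cells carried pericyte markers that had not been used to choose them, and the study set pericytes aside by Pdgfrb. Pdgfrb was detected in 99.5% of them, Atp13a5 in 99.5%, Abcc9 in 97.9%, Ndufa4l2 in 96.3%, Higd1b in 96.2%, Kcnj8 in 94.8%, Notch3 in 94.4% and Cspg4 in 92.8%. Less often detected were Anpep in 51.2%, Tbx18 in 48.7% and Foxf2 in 41.1%. Among the 279 astrocytes assigned to mice by the same hashtag rule, Kcnj8, which encodes the pore of the ATP-sensitive potassium channel of pericytes, was detected in 0.717% and Abcc9 in 1.79%, whereas Pdgfrb was detected in 43.4%, Atp13a5 in 44.8% and Notch3 in 34.4%. Markers of other cells were mixed. Gfap, Lum, Pdgfra, C1qa and Mog had no UMI in the 990 cells, Cdh5 was detected in 0.101%, Snap25 in 0.101%, Cldn5 in 0.606% and Aqp4 in 2.73%. Of the endothelial list, Emcn was detected in 75.3% of the cells, Esam in 69.9%, Adgrf5 in 42.5% and Flt1 in 40.0%. Of the stromal list, Mgp was detected in 74.7%, Col1a2 in 61.7% and Slc6a13 in 41.4%, of the neuronal list Meg3 in 63.7%, and of the smooth muscle list Myh11 in 24.8%. Slc1a3, limited but not removed by the gate, was detected in 36.2%. A gate at 10 UMIs of Vtn and Rgs5 lay far below the typical cell, which had 95, and 17 pericytes had 10 to 19 while 11 cells that met every other criterion had 5 to 9. Barcodes shared between libraries numbered 8, 7 and 3 for the 3 pairs of libraries, and none was a pericyte with a mouse in both.

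Each mouse gave enough pericytes to be summed as a replicate. FC mice 1 to 4 had 64, 100, 90 and 37 pericytes and FR mice 1 to 4 had 36, 45, 56 and 53. Their summed counts ranged from 191242 to 486831 UMIs. Mean UMIs per pericyte were 5348 ± 261 (SD, n = 4 mice) in FR and 5190 ± 309 (n = 4) in FC, a difference within the spread between mice (2-sided exact permutation test, p = 0.457; with 4 mice in each group this test cannot go below 0.0286). Within library 1 the means were 5163 in FR and 5145 in FC, and within library 2 they were 5428 and 5234. Pericytes made up 74.5 ± 14.9% of the hashtag-assigned cells in FR and 71.7 ± 28.5% in FC (2-sided exact permutation test, p = 0.83). FC 1 stood apart, with a share of 29.8% and 144 astrocytes, whereas the other 7 mice lay between 54.9% and 92.8%. Within library 1 the share was 86.1% in FR and 57.6% in FC, and within library 2 it was 54.9% and 85.8%. The difference between groups was 2.77 percentage points with all mice and -11.2 without FC 1. The hashtag rule keeps few astrocytes, so that these are shares of assigned cells and not of the tissue.

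**Figure D1:**
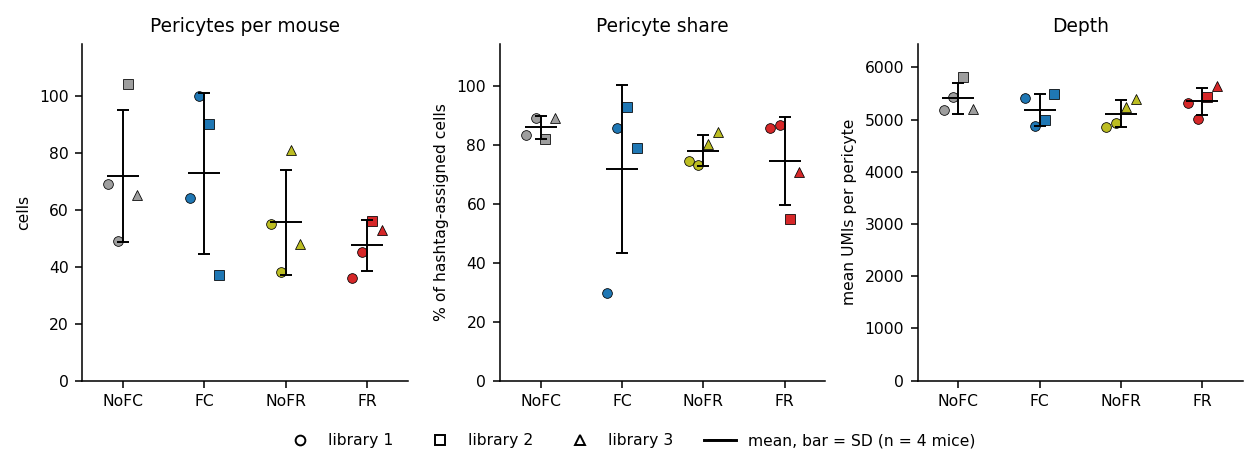
Number of pericytes (cells), pericyte share of hashtag-assigned cells (%) and mean UMIs per pericyte for each of 16 mice, by group on the horizontal axis. Points are mice, shapes are libraries and bars are mean ± SD (n = 4 mice). FC 1 lies lowest in share at 29.8%, while the depth of FR (5348) and FC (5190) pericytes differs by less than the spread between mice.

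No gene differed between FR and FC pericytes at an adjusted p under 0.05. The 2 genes closest to the threshold were Mndal, with a higher level in FR, and Rgs4, with a lower level in FR, both at an adjusted p of 0.0786 (edgeR quasi-likelihood test over 6663 genes, Benjamini-Hochberg adjustment). The genes next in order were Zbtb16, a transcription factor induced by glucocorticoids, Gpc6, a glypican of the cell surface, and Mast4, a kinase, each at an adjusted p of 0.186. The share of genes called was 0% (0 of 6663), and 342 genes had an unadjusted p under 0.05. Of these, 178 had a higher level in FR (2.67% of the genes tested) and 164 a lower one (2.46%). If no gene differed, a share of about 0.05 of the genes would lie under this unadjusted threshold. DESeq2 on the same sums called 0 genes as well, with 155 genes at an unadjusted p under 0.05. All 4 FR mice lay above all 4 FC mice in 110 genes (1.65%) and below them in 97 (1.46%). Levels were expressed as CPM, the UMIs of a gene scaled to a common total per mouse with TMM factors. The median log2 fold change of FR over FC was -0.000181 over all genes, and 49.9% of the genes had a positive value.

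The 95% interval of a log2 fold change reached a median of 0.542 to either side over all genes, 0.768 in the third with the lowest level and 0.352 in the third with the highest. Calls depended on single mice and on which mice were fitted. Without FR 4, the only FR mouse of library 3, 4 genes passed with a higher level in FR. They were Mndal, Gpc6, the lincRNA Gm30624 and Gm42418. The same 4 passed when libraries 1 and 2 alone were fitted. They also passed with only FR and FC mice and a library term, each at an adjusted p of 0.0373 (edgeR). There FR 4 was alone in its library, so that it did not enter the difference between FR and FC. These settings therefore compared the same FR and FC mice and are not independent. With only FR and FC mice and no library term Rgs4 passed instead, with a lower level in FR. Without FC 1, Gpc6, Gm42418 and Rgs4 passed. Without FR 2 Rgs4 passed, and without NoFC 2 Rgs4 and Mndal passed. Gm42418 falls outside the rule for named genes and was chosen after its values were seen. It is a lincRNA locus on chromosome 17 to which ribosomal RNA reads are known to map, and its log2 fold change with all mice was 0.31 (SE 0.0975, adjusted p = 0.513).

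**Figure D2:**
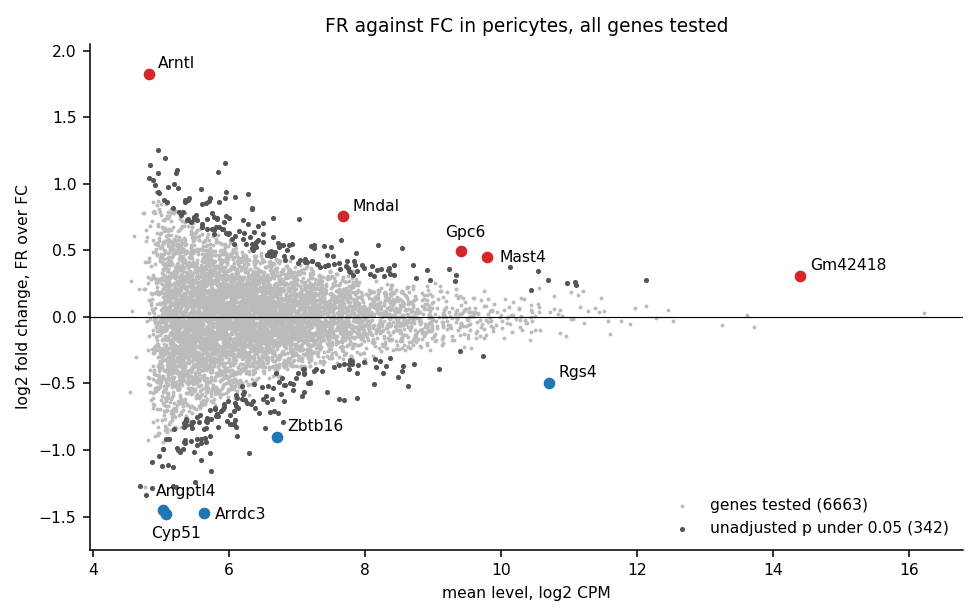
Log2 fold change of FR over FC (vertical axis) against mean level in log2 CPM (horizontal axis) for the 6663 genes tested in pericyte sums. Dark points are the 342 genes with an unadjusted p under 0.05, and coloured points are genes named in the text, higher in FR in red and lower in blue. No gene passed the adjusted threshold, and the scatter narrows as the level rises.

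Levels are given as CPM of the pericyte sum of each mouse, with mice in the order 1 to 4. None of the differences passed the adjusted threshold with all mice. Mndal belongs to the interferon-inducible family of nuclear DNA sensors and lies on chr1:173849126-173942491 (GRCm38, minus strand) among close relatives, with which it may share reads. Its level was 152, 160.5, 143 and 184 CPM in FC mice and 208, 297, 310.2 and 206 CPM in FR mice. Every FR mouse lay above every FC mouse. The log2 fold change was 0.75 (SE 0.163, adjusted p = 0.0786), it was 0.70 within library 1, and the mean was 180.1 CPM in NoFC and 212 CPM in NoFR. Gpc6, which encodes a heparan sulphate proteoglycan anchored to the membrane (chr14:116925315-117976544, plus strand), was at 616, 468, 550.4 and 620.4 CPM in FC and at 803, 750.2, 963 and 634 CPM in FR. The groups did not overlap, although FR 4 lay only just above the highest FC mouse. Its log2 fold change was 0.50 (SE 0.124, adjusted p = 0.186), and NoFC and NoFR had means of 592 and 765 CPM. Mast4, a microtubule-associated kinase, was at 781, 629, 801 and 773 CPM in FC and at 1022, 939, 1087 and 985 CPM in FR, again without overlap. Its log2 fold change was 0.45 (SE 0.113, adjusted p = 0.186), and its mean was 714 CPM in NoFC and 1099.9 CPM in NoFR. For Gpc6 and Mast4 the means of FR and NoFR mice lay above those of FC and NoFC mice.

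The other 9 of the 12 genes with the smallest p among those higher in FR had log2 fold changes from 0.51 to 1.15 and adjusted p-values from 0.186 to 0.456. Rai1, a chromatin-associated regulator of transcription, had the widest difference of these, with 34.1, 23.9, 53.9 and 31.5 CPM in FC and 50.5, 70.8, 114 and 63.8 CPM in FR. FR 1 lay within the FC range. Dicer1, the ribonuclease that cuts miRNA precursors, was at 74.3, 60.7, 49.2 and 42.1 CPM in FC and at 101, 118, 99.8 and 92.1 CPM in FR, with no overlap and a log2 fold change of 0.82 (SE 0.237, adjusted p = 0.391). Rufy1, an endosomal protein, Mmut, the mitochondrial methylmalonyl-CoA mutase, and Bmt2, a sensor of S-adenosylmethionine, had log2 fold changes of 0.90, 0.92 and 0.81. The remaining 4 were the protein-coding E130308A19Rik and Gm13889 (0.51 and 0.54) and the lincRNAs Gm30624 and Gm29478 (0.73 and 1.09). Within library 1 the log2 fold change of Gm13889 was 0.28 and that of E130308A19Rik was 0.28.

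Rgs4 led the genes with a lower level in FR. It encodes a regulator that speeds the shut-off of G proteins of the Gi and Gq kind and lies on chr1:169741477-169747642 (minus strand). Its level was 1660.4, 1954, 2148 and 2182 CPM in FC and 1432, 1647, 1294 and 1315 CPM in FR. All FR mice lay below all FC mice, with FR 2 and FC 1 close together. The log2 fold change was -0.50 (SE 0.111, adjusted p = 0.0786). Within library 1 it was -0.24, less than with all mice by over 1.5 times. NoFC and NoFR had means of 1863 and 1361 CPM, so that FR (1422 ± 162, SD, n = 4) lay with NoFR and FC (1986 ± 239, n = 4) with NoFC. BC028528 was at 232, 241, 215 and 268 CPM in FC and at 157, 142, 160.4 and 195 CPM in FR (log2 fold change -0.63, SE 0.163, adjusted p = 0.212). Its means were 238 CPM in NoFC and 150.0 CPM in NoFR. Ifi30, a thiol reductase of lysosomes, was at 328, 260.2, 232 and 284 CPM in FC and at 219, 169.9, 171 and 195 CPM in FR (log2 fold change -0.61, SE 0.169, adjusted p = 0.359), and at means of 296 CPM in NoFC and 140.4 CPM in NoFR. For both genes the FC and FR mice did not overlap.

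**Figure D3:**
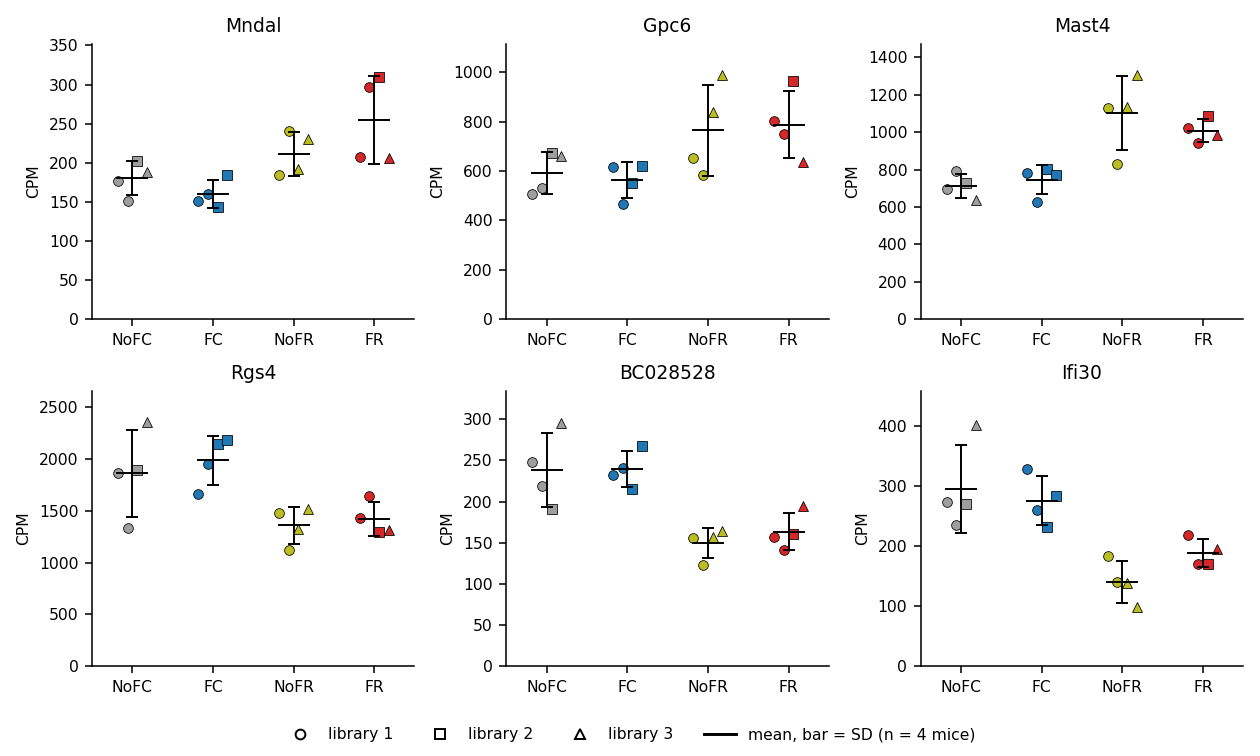
Level in CPM of 6 genes in the pericyte sum of each mouse, by group. Points are mice, shapes are libraries and bars are mean ± SD (n = 4 mice). Mndal, Gpc6 and Mast4 are higher in all FR than in all FC mice, and Rgs4, BC028528 and Ifi30 are lower in all FR mice, though no gene passed the adjusted threshold.

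Of the other 9 genes with the smallest p among those lower in FR, Zbtb16 and Arrdc3 are described with the glucocorticoid targets. Aldh1a1, which makes retinoic acid from retinaldehyde, was at 96.0, 73.7, 145 and 84.1 CPM in FC and at 67.4, 47.2, 35.7 and 53.2 CPM in FR (log2 fold change -1.02, SE 0.289, adjusted p = 0.391). FC 3 was the highest and the groups did not overlap. Zzz3, a subunit of a histone acetyltransferase complex, Fxr1, an RNA-binding protein, Zhx3, a homeobox repressor, and Pet100, an assembly factor of cytochrome c oxidase, had log2 fold changes of -0.83, -0.57, -1.16 and -1.24, also without overlap. Timp3, an inhibitor of matrix metalloproteinases, and Zc3hav1, an antiviral RNA-binding protein, overlapped between groups, with log2 fold changes of -0.52 and -0.62. Within library 1 these were -0.29 for Timp3 and -0.19 for Zc3hav1.

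The glucocorticoid receptor and its targets formed the list with the most members at an unadjusted p under 0.05 and a lower level in FR. Of 38 genes, 22 passed the filter on low counts. None passed the adjusted threshold. The log2 fold change was negative in 19 and positive in 3, with a median of -0.27 against -0.000181 over all genes. 8 members had an unadjusted p under 0.05 with a lower level in FR and 0 with a higher one, beside 2.46% and 2.67% of all genes. This list and the others were chosen with earlier results of these data known, so that the counts are no independent test. All FR mice lay below all FC mice in 3 members (Zbtb16, Arrdc3 and Angptl4), beside 1.46% of all genes. Over the alternatives the median ranged from -0.42 to -0.17 and the number at an unadjusted p under 0.05 from 4 to 12. The median was -0.32 with 12 members without FC 2, -0.17 with 5 members without FR 1 and -0.32 with 5 members without FR 3. Within library 1 the median was -0.22 over 20 members, of which 13 were negative. The 38 genes summed to 3878, 3066, 3518 and 3570 CPM in FC mice. In FR mice the sum was 2582, 3473, 2792 and 3292 CPM. The groups overlapped, with FR 2 and FR 4 above FC 2 (2-sided exact permutation test over mice, p = 0.143). That test has no library term, and for a list chosen in this way it is no independent test either.

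Zbtb16 was at 149, 117, 136 and 195 CPM in FC mice and at 61.8, 104, 71.3 and 103 CPM in FR mice. Every FR mouse lay below every FC mouse. Its log2 fold change was -0.90 (SE 0.223, adjusted p = 0.186), and -0.64 within library 1. In NoFR mice, left in the home cage, it was at 12, 11.2, 12.4 and 12.3 CPM, far below each of the other 12 mice, and in NoFC mice it was at 79.7, 99.8, 148 and 192 CPM. The group means thus ran, from low to high, NoFR 12, FR 84.9, NoFC 129.9 and FC 149 CPM, and NoFC and FC overlapped. Arrdc3, an arrestin-like adaptor that binds beta-adrenergic receptors, was at 80.5, 41.2, 56.2 and 47.3 CPM in FC and at 22.5, 4.72, 32.1 and 28.3 CPM in FR, without overlap. Its log2 fold change was -1.48 (SE 0.378, adjusted p = 0.198), on 78 UMIs in FC and 22 in FR. Its means in NoFC and NoFR were 53.8 and 33.8 CPM.

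Angptl4, a secreted inhibitor of lipoprotein lipase, was at 68.2, 30.4, 39.8 and 52.6 CPM in FC and at 5.61, 18.9, 21.4 and 24.8 CPM in FR (log2 fold change -1.45, SE 0.469, adjusted p = 0.521). The groups did not overlap, and FC 1 was the highest. Tsc22d3, which encodes the anti-inflammatory protein GILZ, was at 229, 97.6, 112 and 63.1 CPM in FC and at 78.6, 104, 57.0 and 70.9 CPM in FR. FC 1 was more than 2 times the next FC mouse and the other mice overlapped, with a log2 fold change of -0.79 (SE 0.253, adjusted p = 0.513). Fkbp5, a co-chaperone that restrains the receptor, was at 31.0, 30.4, 79.6 and 42.1 CPM in FC and at 22.5, 33.0, 17.8 and 49.6 CPM in FR, on 66 and 30 UMIs, and the groups overlapped (log2 fold change -0.81, SE 0.407, adjusted p = 0.942). Cebpd, a transcription factor of the acute response, Pnpla2, the triglyceride lipase, and Ddit4, an inhibitor of mTOR signalling, had log2 fold changes of -0.51, -0.62 and -0.69 and also overlapped between groups. In FR 1 Cebpd was at 101 CPM and in FR 2 at 339.7 CPM, a wider spread than in FC mice (269 to 309.8 CPM). Klf9, a target with a strong basal level, had means of 513 ± 54.5 CPM in FC and 528 ± 36.1 CPM in FR, beside 317 ± 35.8 CPM in NoFR (SD, n = 4 each), and the log2 fold change of FR over FC was -0.01 (95% interval -0.27 to 0.25). The receptor gene Nr3c1 was at 211 ± 19.2 CPM in FC and 204 ± 35.9 CPM in FR (log2 fold change -0.03, 95% interval -0.36 to 0.29).

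The clock genes that peak about the evening were also mostly at lower levels in FR. Of 16, 12 passed the filter and none passed the adjusted threshold. The log2 fold change was negative in 10, with a median of -0.21, and 3 had an unadjusted p under 0.05 with a lower level in FR (Tef, Per3 and Tspan4), beside 2.46% of all genes. Over the alternatives the median ranged from -0.31 to -0.13 and this number from 0 to 5. It was 5 without FC 1, 0 without FC 2, 1 without FC 3, 1 without FR 3, 2 without FR 4 and 1 with DESeq2. The summed level of the 16 genes was 1756, 2012, 1881 and 1845 CPM in FC mice and 1533, 1887, 1479.6 and 1389 CPM in FR mice. FR 2 reached the FC range and the other 3 FR mice lay below it. In NoFR mice the sum was lower again, from 799 to 1098 CPM, and in NoFC mice it was 1895 to 2283 CPM. Of 10 measured genes that peak about the morning, 4 passed the filter, with Arntl the only member at an unadjusted p under 0.05 and a median of 0.28. The time of day at which each mouse was collected was not stated beyond the light phase, and its part in these values was not tested.

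Tef was at 112, 158, 176 and 121 CPM in FC and at 89.8, 142, 103 and 74.4 CPM in FR (log2 fold change -0.56, SE 0.212, adjusted p = 0.742). FR 2 lay within the FC range. Per3, a period gene, was at 46.5, 67.2, 51.5 and 15.8 CPM in FC and at 61.8, 23.6, 10.7 and 24.8 CPM in FR, with FC 4 low and FR 1 high for their groups (log2 fold change -0.92, SE 0.375, adjusted p = 0.807). Dbp was at 266, 317, 293 and 289 CPM in FC, a narrow range, and at 376, 269, 178 and 188 CPM in FR, above and below it. Its log2 fold change was -0.30 with all mice (SE 0.167, adjusted p = 0.942) and 0.12 within library 1. Hlf, Per1 and Nr1d1, the last encoding the repressor REV-ERB alpha, had log2 fold changes of -0.25, -0.35 and -0.17, and the value of Per1 within library 1 was 0.20. Within library 1 none of the 12 genes had an unadjusted p under 0.05 and 7 were negative. Arntl had the opposite sign, at 6.20, 2.17, 11.7 and 10.5 CPM in FC and at 11.2, 28.3, 32.1 and 28.3 CPM in FR. FR 1 lay within the FC range and the other FR mice were more than 2 times above it. Its log2 fold change was 1.83 (SE 0.586, adjusted p = 0.513), on only 10 UMIs in FC and 25 in FR, and NoFR mice had 28.0, 89.6, 52.2 and 65.8 CPM. Clock, its partner, was at 128 ± 20.6 CPM in FC and 145 ± 44.7 CPM in FR (SD, n = 4; log2 fold change 0.29, and -0.05 within library 1).

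**Figure D4:**
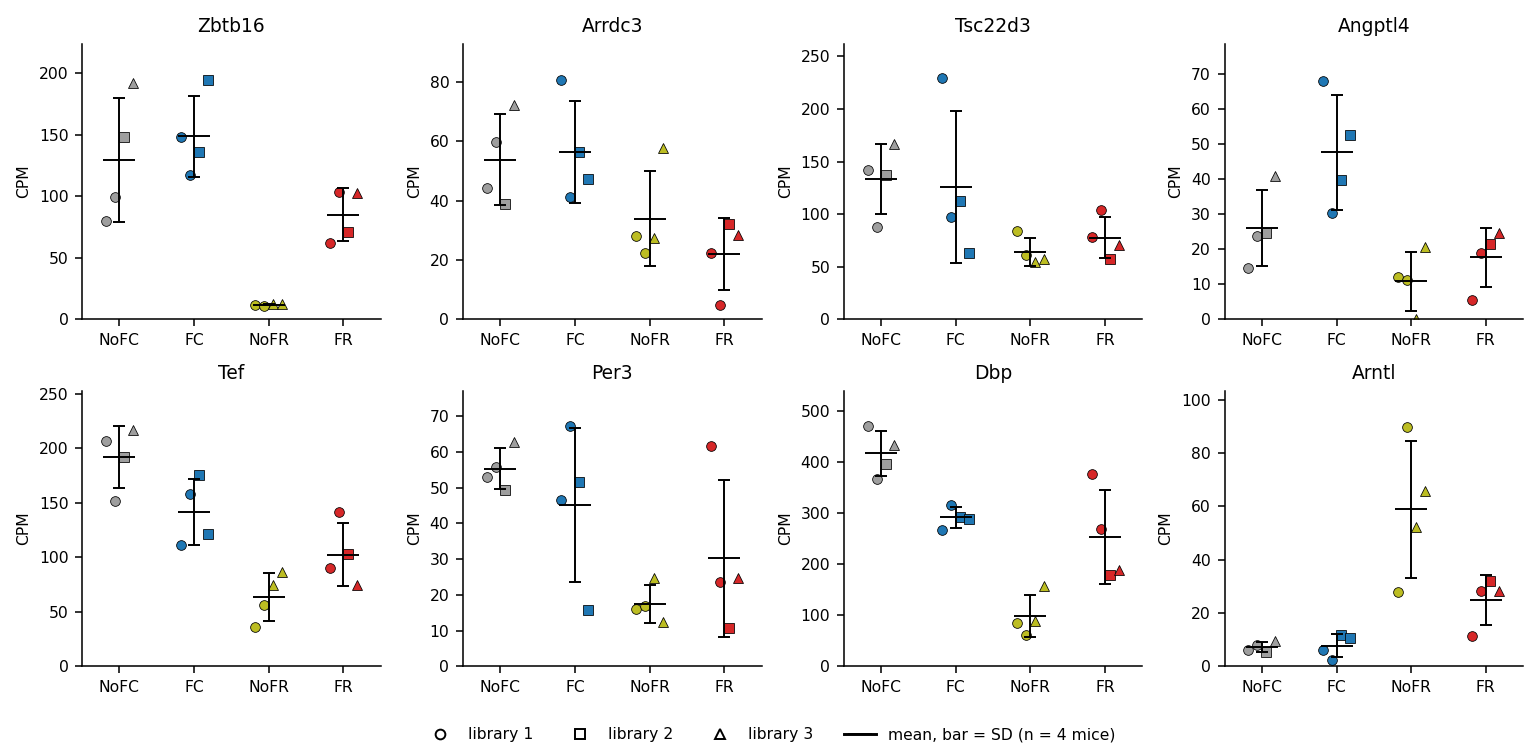
Level in CPM of 4 glucocorticoid targets (upper row) and 4 clock genes (lower row) in the pericyte sum of each mouse, by group. Points are mice, shapes are libraries and bars are mean ± SD (n = 4 mice). For Zbtb16 the FR mean of 84.9 lies between those of NoFR (12) and FC (149), and for Arntl the FR mean of 25.0 lies between those of FC (7.65) and NoFR (58.9).

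Promoters of the evening genes were searched for the sites their textbook regulators bind. Windows ran from 250 bases before to 50 after each start site in RefSeq on GRCm38.p6, and both strands were read. Of the 16 genes, 13 had a window. The E-box CACGTG was found for 5 of the 13 genes, in 6 of 16 windows, and in 7.15% of all 32851 windows. The D-box, searched as TTACGTAA or TTATGTAA, was found for Per3 alone, and in 1.06% of all windows. The matches of the genes described above are shown with the motif in capitals, on the strand of the gene, because these are the elements through which the clock is known to act.
Tef, E-box, chr15:81802534-81802563, plus strand: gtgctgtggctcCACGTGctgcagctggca
Tef, E-box at the second start site, chr15:81811264-81811293, plus strand: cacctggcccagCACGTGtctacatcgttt
Per1, E-box, chr11:69098771-69098800, plus strand: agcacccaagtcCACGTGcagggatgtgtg
Tspan4, E-box, chr7:141476317-141476346, plus strand: cccccatggagcCACGTGcagagccacgag
Per3, first D-box, chr4:151044852-151044881, minus strand: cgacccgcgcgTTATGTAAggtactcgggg
Per3, second D-box, chr4:151044805-151044834, minus strand: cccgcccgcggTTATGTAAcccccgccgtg
A match is a description of the letters in the window. Of the genes printed, Tspan4 was lower in all FR than in all FC mice (99.1, 124, 129 and 147 CPM in FC, and 73.0, 94.4, 74.9 and 88.6 CPM in FR). Tef, Per1 and Per3 overlapped between groups.

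Immediate early genes, which are transcribed within minutes of a stimulus and mark recently active cells, were mostly too low to test. Of 42 measured, 15 passed the filter, 0 had an unadjusted p under 0.05, 9 were negative and the median log2 fold change was -0.062. Fos had 1 UMI in the 990 pericytes, in a NoFR mouse, and Npas4, Arc, Fosb and Egr2 had 0, so that no level of these genes can be told from 0 in either group. Nr4a1, an orphan receptor induced by activity, had 3 UMIs in all FR and 7 in all FC pericytes. Egr1 was at 58.9, 28.2, 11.7 and 5.26 CPM in FC and at 78.6, 33.0, 21.4 and 3.54 CPM in FR, and the groups overlapped over most of their range (log2 fold change 0.27, SE 0.498, adjusted p = 0.992). Btg2, an antiproliferative gene, had the smallest p of the list (log2 fold change -0.33, SE 0.188, adjusted p = 0.942). The summed level of the list was 1697 ± 143 CPM in FR and 1758 ± 127 CPM in FC (SD, n = 4 each).

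The genes that define a pericyte lay near the values of all genes. Leaving out Vtn and Rgs5, which chose the cells, 22 genes of pericyte identity were tested, 9 positive and 13 negative, with a median of -0.0080 and a range from -0.37 to 0.23. The lowest was Foxc1, a forkhead factor of mural cells, with 443, 392, 459 and 389 CPM in FC and 309, 387, 285 and 329.6 CPM in FR (log2 fold change -0.37, SE 0.136, adjusted p = 0.718). FR 2 lay just below the lowest FC mouse and the groups did not overlap. NoFC and NoFR means of Foxc1 were 411 and 312 CPM. The summed level of the 22 genes was 28402 ± 968 CPM in FR and 28475 ± 855 CPM in FC (SD, n = 4 each).

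The machinery through which pericytes set capillary tone gave few members at an unadjusted p under 0.05 in either direction, where 2.67% of all genes were higher and 2.46% lower. Among 12 tested genes of contraction, 1 was lower, Myh11, the smooth muscle myosin heavy chain (log2 fold change -0.72, SE 0.269, adjusted p = 0.729). It is also a smooth muscle marker, and it was at 177 CPM in FC 1 and 128 CPM in FR 4 against 39.3 to 105 CPM in the other FR and FC mice. Among 21 vasoactive receptors and cyclic nucleotide genes, 2 were higher and 1, Rgs4, was lower. Prkg1, the cGMP-dependent kinase, was at 2026, 1936, 2293 and 1756 CPM in FC and at 2223, 2288, 2531 and 2388 CPM in FR (log2 fold change 0.24, SE 0.0932, adjusted p = 0.79). Pde4d, which breaks down cAMP, was at 1406, 1602, 1499 and 1251 CPM in FC and at 1768, 1349, 2096 and 1797 CPM in FR (log2 fold change 0.28, SE 0.109, adjusted p = 0.79), and 0.04 within library 1. FR mice overlapped with FC mice for both. Among 27 ion channel and calcium genes, 1 was lower, Atp2b4, a calcium pump of the plasma membrane (log2 fold change -0.66, SE 0.298, adjusted p = 0.923).

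Signals to and from the endothelium had medians near that of all genes, and their counts at an unadjusted p under 0.05 are again to be read beside 2.67% of all genes higher and 2.46% lower. In the list of PDGF, Notch, TGF-beta, VEGF and angiopoietin genes, 1 of 23 tested was lower, Tgfbr3, a co-receptor of TGF-beta (log2 fold change -0.43, SE 0.194, adjusted p = 0.923), without overlap between the groups. In basement membrane and matrix, 1 of 24 was higher and 1 lower. Col4a2, a chain of collagen IV, was at 465, 293, 375 and 457 CPM in FC and at 449, 425, 467 and 556 CPM in FR (log2 fold change 0.29, SE 0.137, adjusted p = 0.942), and the lower gene was Timp3. Of 21 solute transporters, 1 was lower, Slc12a4, a potassium-chloride cotransporter (log2 fold change -0.61, SE 0.298, adjusted p = 0.942). The medians of these 3 lists were -0.041, -0.043 and 0.011.

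Among lists of stress, immune and metabolic genes, none had a member past the adjusted threshold. The counts at an unadjusted p under 0.05 stand beside 2.67% higher and 2.46% lower of all genes. Of 32 heat shock and folding genes, 1 was higher and 1 lower at an unadjusted p under 0.05. Xbp1, the transcription factor of the unfolded protein response, was at 164, 134, 122 and 94.6 CPM in FC and at 213, 198, 185 and 174 CPM in FR, without overlap (log2 fold change 0.53, SE 0.174, adjusted p = 0.54), and Hsp90aa1 had a log2 fold change of -0.31. Among 10 cytokine and adhesion genes the median was -0.059, and Il34, a ligand of the microglial receptor CSF1R, had a log2 fold change of -0.25 with overlap. The 15 interferon and antigen presentation genes had a median of 0.013, and Ifitm3, a membrane protein that hinders virus entry, had a log2 fold change of 0.23 with overlap.

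In the lists that follow, higher and lower again mean an unadjusted p under 0.05, beside 2.67% higher and 2.46% lower of all genes. No member passed the adjusted threshold. Of 22 genes of hypoxia and glycolysis, 1 was higher, Bnip3, a mitophagy receptor (0.97), and 2 were lower, Ddit4 and the vasodilator peptide Adm (-0.69 and -0.76). Of 75 nuclear-encoded subunits of the respiratory chain, 4 were higher and 1 lower, with a median of 0.017. Ndufs1, Uqcrb and Ndufv2, subunits of complexes I and III, had log2 fold changes of 0.56, 0.35 and 0.38 without overlap, and Sdhb of complex II had -0.55 without overlap, where 1.65% of all genes lay above and 1.46% below without overlap. Of 11 genes of cholesterol synthesis and uptake, 9 were negative, 1 was lower and 1 higher, and the median of -0.35 was the lowest of all lists of at least 4 tested genes. Cyp51, a demethylase of sterol synthesis, was at 37.2, 28.2, 32.8 and 42.1 CPM in FC and at 5.61, 9.44, 21.4 and 7.09 CPM in FR. The groups did not overlap, on 47 and 11 UMIs, and the log2 fold change was -1.48 (SE 0.497, adjusted p = 0.606). NoFC and NoFR means of Cyp51 were 27.5 and 35.2 CPM, close to FC. Insig2, which holds back sterol synthesis, had a log2 fold change of 0.60 without overlap, and Msmo1, another enzyme of the pathway, -0.61 with overlap. Of 19 metallothionein and redox genes 1 was lower, Txnip, an inhibitor of thioredoxin (-0.71). No member of 13 mitochondrially encoded or 77 ribosomal protein genes had an unadjusted p under 0.05, with medians of -0.045 and -0.053.

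**Figure D5:**
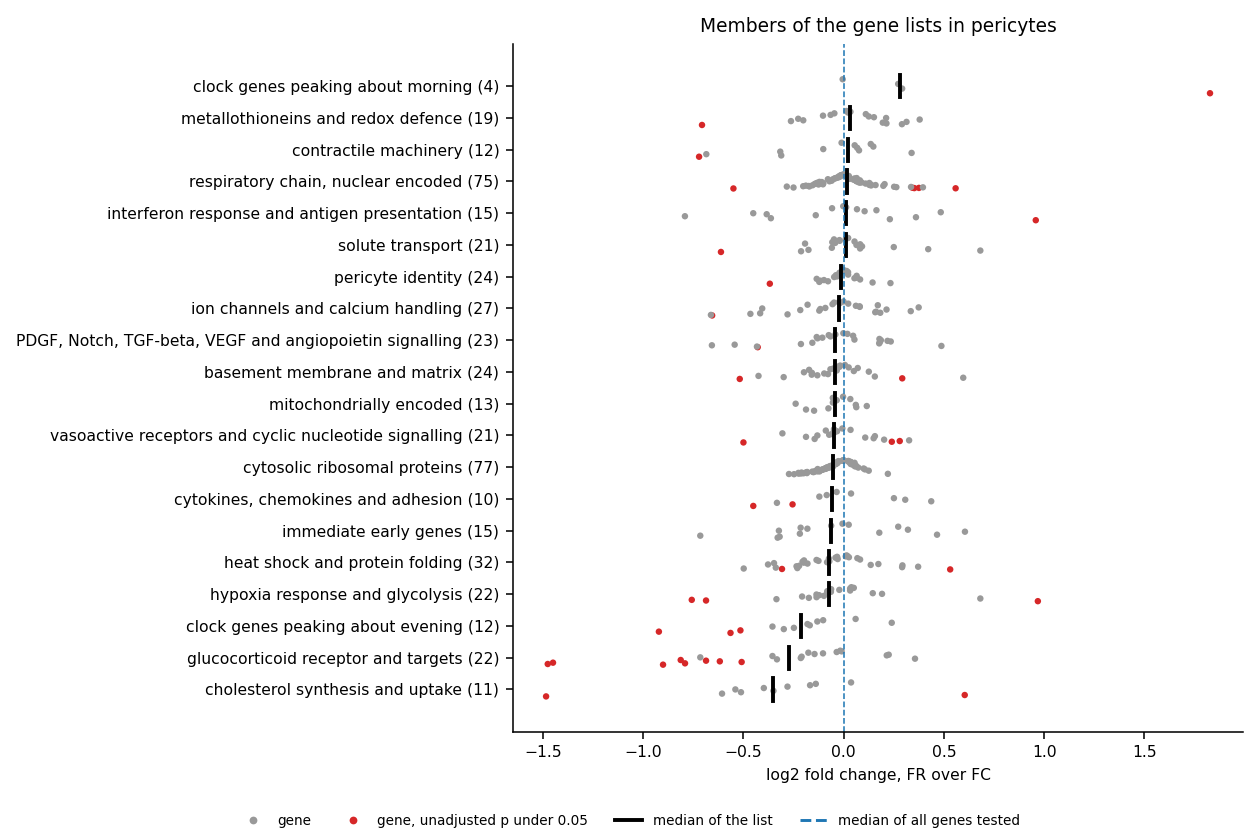
Log2 fold change of FR over FC (horizontal axis) of each tested member of 20 gene lists in pericytes, with the number of tested members in brackets. Grey points are genes, red points are genes with an unadjusted p under 0.05, black bars are list medians and the dashed line is the median of all genes. The glucocorticoid list (median -0.27) holds 8 red points, all on the FR-lower side, and none of the genes passed the adjusted threshold. Lists were chosen with earlier results of these data known.

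Pericytes were then set against astrocytes of the same mice, to ask whether the FR and FC difference differed between the cell classes. Only 9 mice had at least 5 cells of both classes, among them 2 FR and 2 FC mice, since few astrocytes met the hashtag rule. These were FC 1 and FC 2 of library 1, FR 3 of library 2 and FR 4 of library 3. Group and library cannot be told apart among these 4 mice. Of 5382 genes tested for this interaction, 0 passed the adjusted threshold and 146 had an unadjusted p under 0.05 (edgeR, smallest adjusted p = 0.541). With a looser hashtag rule of 5 UMIs and 2 times the next, all 16 mice had both classes and 0 of 6601 genes passed, with 211 at an unadjusted p under 0.05. The looser rule gave 493 astrocytes to FC 1 and 286 to FR 3, beside 144 and 42 with the stricter rule. Every other mouse had 11 to 91 under the looser rule. Whether these weakly tagged cells were given to the right mouse was not tested. Under that rule Zbtb16 had means of 91.5 CPM in FR and 147 CPM in FC pericytes and of 145 CPM and 177 CPM in the astrocytes, and the difference between the 2 log2 fold changes was -0.51 (edgeR, SE 0.302, unadjusted p = 0.101). With the stricter hashtag rule and its 4 FR and FC mice the difference was -1.10 (edgeR, SE 0.516, unadjusted p = 0.0325, adjusted p = 1). The astrocyte means there were 186 CPM in FR and 135 CPM in FC, the opposite direction to that under the looser rule. In pericytes they were 83.3 CPM in FR and 128 CPM in FC. For Cebpd the looser rule gave FR and FC means of 214 and 286 CPM in pericytes and of 30.5 and 15.4 CPM in astrocytes. The difference was -1.09 (edgeR, SE 0.330, unadjusted p = 0.00211, adjusted p = 1), and with the stricter rule it was -0.48 (SE 0.689). Other glucocorticoid genes went both ways under the looser rule. The difference was 0.38 for Klf9, 0.37 for Fkbp5 and 0.17 for Nr3c1. It was -0.81 for Arrdc3, -0.65 for Tsc22d3, -0.60 for Ddit4 and -0.32 for Pnpla2. Outside these genes the wider values included 1.15 for Rai1 (SE 0.353), 1.58 for Arntl (SE 0.554) and -1.34 for Atp2b4 (SE 0.442). Zc3hav1 (1.19), Per3 (-1.14) and Mmut (1.02) were of like size, and none of these passed the adjusted threshold. The median standard error of such a difference was 0.632 with the stricter rule and 0.385 with the looser one.

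Markers of other cells were summed in the pericytes of each mouse and compared between the groups. The gate capped Slc1a2 and Slc1a3 of the astrocyte list, Acta2 of the smooth muscle list and Dcn of the stromal list in every cell. These sums are therefore partly limited by the choice of cells. Over all pericytes Slc1a2 was at 76.8 CPM and Slc1a3 at 103 CPM. Summed endothelial markers, 16 genes of which 5 passed the filter, ranged from 970 to 1148 CPM in FC mice and from 906 to 1775 CPM in FR mice, with FR 4 the highest. This sum was mostly Emcn, Esam, Flt1 and Adgrf5. Among members too low to test, Cldn5 had 55 UMIs in FR and 1 in FC, Itm2a 42 and 8, Ptprb 16 and 0, and Ly6a 11 and 0. Kdr alone of these low members had fewer UMIs in FR, with 22 in FR and 34 in FC. These are UMIs not scaled to a common total, and the pericyte sums averaged 254934 UMIs in FR mice and 371334 in FC mice. Cldn5 was detected in 0.606% of the 990 pericytes, Itm2a in 1.82%, Ptprb in 0.202% and Ly6a in 0.101%. Their UMIs therefore lay in very few cells and do not describe the FR mice as a group. Of the tested members, Slco1a4 was at 170 CPM in FR 4 and at 16.8 to 35.7 CPM in the other FR mice. Summed astrocyte markers, 16 genes, ranged from 429 to 531 CPM in FC and from 460 to 684 CPM in FR, where FR 4 was again the highest. Summed markers of perivascular stromal cells, 8 genes, ranged from 1654 to 2054 CPM in FC and from 1761 to 2611 CPM in FR. This sum was mostly Mgp, a matrix protein that pericytes also express, at 1381.5 CPM over all pericytes (log2 fold change 0.34, SE 0.110, adjusted p = 0.513), while the defining stromal markers Lum and Pdgfra were at 0. Summed microglial markers, 10 genes of which 6 were at 0, among them C1qa, Tyrobp and Tmem119, ranged from 15.8 to 39.0 CPM in FC and from 46.1 to 67.7 CPM in FR, without overlap. Smooth muscle markers, 8 genes, ranged from 147 to 263 CPM in FC and from 107 to 248 CPM in FR, with FC 1 and FR 4 the highest of their groups. Summed neuronal markers, 10 genes, ranged from 349 to 457 CPM in FC and from 339 to 488 CPM in FR, and markers of oligodendrocytes, red blood cells and dividing cells were at 28.1 CPM or less in every FR and FC mouse. Their part in the differences above was not tested. Endothelial UMIs were those of Cldn5, Flt1 and Pecam1 together. Flt1 was detected in 40.0% of the 990 pericytes, Cldn5 in 0.606% and Pecam1 in 0.808%, so that a cut on them fell mainly on Flt1. When the 95 pericytes with over 2 endothelial UMIs were left out, 0 of 5986 genes passed. The log2 fold change of Rgs4 and of each other gene named as leading kept its sign. Of 21 glucocorticoid genes tested there, 4 had an unadjusted p under 0.05 with a lower level in FR, beside 2.82% of all genes. With all pericytes 8 of 22 did. The median of the list was -0.26, and Klf9 (0.069) and Nr3c1 (0.0012) changed sign.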

How the data were processed

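Amygdala cells sorted by ACSA-2 were measured by 10x single-cell RNA sequencing with TotalSeq-B hashtags. UMI counts per gene and barcode were deposited by the authors, aligned to mm10, with Cell Ranger 3.0 per the labels and cellranger 7.0.0 per the file headers. Mouse and group came from the deposited hashtag table. Pericyte counts were summed per mouse and fitted with edgeR 4.0.16 (R 4.3.3): filterByExpr (minimum count 10), TMM, group and library as terms, all 16 mice, quasi-likelihood test, Benjamini-Hochberg adjustment at 0.05. All p-values for genes come from this edgeR fit unless another tool is named. Labels do not say whether mice came from separate litters or days. Shares and depths were compared by exact permutation over mice. Doublets were limited by the hashtag ratio and the gate, with no doublet caller. Between 37 and 100 FC cells and 36 and 56 FR cells per mouse set the precision.

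Members and gene lists were chosen with earlier results of these data known. Genes were named by a rule: the 12 smallest p in each direction, filled from genes that did not pass, and up to 4 members of each list by p, with members needed to say what a list holds. Fits were tested on simulated data. Alternatives covered the test, scaling, filters, covariates, hashtag rule, gate and each mouse left out, with DESeq2 1.42.0 as the other tool. Promoters came from RefSeq (GRCm38.p6) and gene positions from GENCODE on GRCm38. Results for some members of the cytokine and interferon lists are not reported here.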

Additional observations from a re-analysis of the deposited data

Results flagged for a closer look

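For the named genes and for pericyte number, share and depth, 144 groups of 4 mice were examined. In 5 of them, all for genes, a mouse lay far from the other 3, where chance gives about 5%. Mast4 was at 629 CPM in FC 2 and at 773 to 801 CPM in the other FC mice. Gm29478 was at 53.5 CPM in FR 3 and at 84.2 to 89.6 CPM in the other FR mice. Gm13889 was at 347 CPM in FR 4 and at 275 to 278 CPM in the others. Zzz3 was at 85.6 CPM in FR 3 and at 53.2 to 56.6 CPM in the others. Zc3hav1 was at 85.0 CPM in FR 4 and at 169.9 to 179.6 CPM in the others.

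Outside the comparison, 521 cells passed the pericyte gate and the hashtag rule, but their hashtag is listed for no mouse of their library. They numbered 65 in library 1, 160 in library 2 and 296 in library 3, and were not assigned to a group.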

How the results depend on the processing

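With all mice 0 genes passed. Without the filter on low counts 1 gene passed as higher and 1 as lower in FR. With only FR and FC mice 4 passed as higher with a library term, and 1 as lower without it. With libraries 1 and 2 alone 4 passed as higher. Leaving out each mouse in turn gave 0 to 4 higher and 0 to 1 lower. All other settings gave 0, DESeq2 included. FR 4 was the only FR or FC mouse of its library. It therefore did not enter the FR and FC difference when only FR and FC mice were fitted with a library term. That fit compared the same FR and FC mice as the fit of libraries 1 and 2 and the fit without FR 4. The same 4 genes passed in each. Fewer genes or mice enter some of the other fits, and the cause of the remaining differences was not tested.

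The pericyte share, FR minus FC, was -3.37 percentage points with the hashtag rule of 5 UMIs and 2 times the next, and -11.2 to 9.80 when single mice were left out. Of 2301 values of 69 named genes, 2255 kept their direction and side of the threshold, 21 passed it and 25 reversed, in 7 genes. The log2 fold change of Klf9 was 0.016 with only FR and FC mice and a library term, 0.057 without a library term (0.060 with only FR and FC mice), 0.027 in library 1, 0.0178 in libraries 1 and 2, 0.00525 with Vtn and Rgs5 at 20 or more, 0.034 with Slc1a2 and Slc1a3 at 1 or less, 0.069 with at most 2 endothelial UMIs and -0.11 to 0.062 with single mice left out. Nr3c1 was at 0.067 with the hashtag rule of 5 UMIs, 0.0012 with at most 2 endothelial UMIs and -0.16 to 0.064 with single mice left out. Egr1 was at -0.32 with that hashtag rule, -0.91 with Slc1a2 and Slc1a3 at 1 or less and -0.31 to 0.81 with single mice left out. In library 1 Dbp was at 0.12, Per1 at 0.20 and Clock at -0.053, and Nr1d1 was at 0.0095 with a hashtag rule of 20 UMIs and 5 times the next. Leaving out cells over 3 times the median UMIs removed 0 cells.

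No paired analysis was possible because mouse numbers do not pair mice across groups: each number only names a hashtagged mouse.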
